A study of Mus musculus with 15 samples.

Results

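A set of 8 genes of the muscle thin filament was followed through the hearts of E14.5 mouse embryos: the troponin I genes Tnni1 and Tnni3, the troponin T genes Tnnt1 and Tnnt2, the troponin C gene Tnnc1, and the alpha actin genes Actc1, Acta1 and Acta2. They were chosen by name as troponin and actin genes, to follow the makeup of fetal and adult isoforms. All 8 were among the 16809 genes of the deposited table of unique molecular identifiers (UMIs). The data are Drop-seq libraries, in which single cells of whole hearts of C57BL6/N embryos are captured with barcoded beads. They address what loss of Adamts19, a secreted metalloprotease, does in a heart that goes on to valve disease.

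Of the 15 libraries, 7 came from wild-type (WT) embryos and 8 from homozygous Adamts19 knockout (KO) embryos, all at E14.5 and with no treatment named in the labels. KO replicates 1 to 4 carried the allele tm4a, with replicate 1 from litter 5 and replicates 2 to 4 from litter 6, and KO replicates 5 to 8 carried the allele tm4b, all from litter 7. WT replicates 1 and 2 came from litter 1, replicates 3 and 4 from litter 2, replicate 5 from litter 3, and replicates 6 and 7 from litter 4. One flow cell carried all 8 KO libraries together with WT replicate 5. The remaining 6 WT libraries were sequenced elsewhere, so genotype and flow cell can hardly be told apart. Allele and litter cannot be told apart, because no litter held both alleles, and no litter held both genotypes. The sources used here do not give which part of Adamts19 each allele removes, or how many embryos went into a library, so p-values measure the spread between these libraries.

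Between 5477109 and 11340443 UMIs were deposited per library, and 50775 cells were kept, 22381 from WT and 28394 from KO hearts, with medians of 1328 to 2089 UMIs per cell in the 15 libraries. Adamts19 itself gave 15.8 to 49.9 CPM (counts-per-million, the UMIs of a gene scaled to a common total) in the WT libraries and 5.28 to 8.60 in the KO libraries, which did not overlap, although a 3′ tag outside the deleted part checks nothing. Of 55053 distinct barcode sequences, 87 occurred in more than 1 library. WT replicate 4 stood apart in mural cells and WT replicate 1 in the troponin I makeup, and values that rest on them are given with and without them or beside the range of the others. Levels below are CPM of all UMIs of a cell class in a library. A transcript is counted once at its 3′ end, so that these levels do not scale with transcript length.

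Troponin is the calcium switch of the thin filament. Troponin C binds calcium, troponin I holds the filament off in its absence, and troponin T ties the complex to tropomyosin on the actin strand. The fetal heart is known to use the slow skeletal troponin I encoded by Tnni1 and to replace it after birth with the cardiac form encoded by Tnni3, and the skeletal and smooth muscle alpha actins (Acta1 and Acta2) are known from the early heart, in which cardiac alpha actin (Actc1) comes to dominate.

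In the GENCODE M21 annotation of GRCm38, the build that mm10 names, the troponin I and T genes lie close together in pairs. Tnni1 (chr1:135779434-135810989, plus strand) lies near Tnnt2 (chr1:135836354-135852260, plus strand), and Tnnt1 (chr7:4504570-4516382, minus strand) lies near Tnni3 (chr7:4518305-4524229, minus strand). Other genes between them were not looked for. Tnnc1 is at chr14:31208312-31211729 on the plus strand, Actc1 at chr2:114047282-114053548, Acta1 at chr8:123891769-123894751 and Acta2 at chr19:34241090-34255590, all 3 on the minus strand.

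RefSeq promoter sequences of GRCm38.p6 were matched to all 8 genes. The 250 bases before each start were searched on both strands for a CArG box (the element bound by serum response factor), a MEF2 site, the TEAD element CATTCCT and the TATA sequence TATAAA. The 4 below are shown because they belong to the troponin T pair and the striated actins, whose isoforms part most between heart chambers or which held a CArG box. Capitals mark the matches. Where the window overlaps an annotated exon only 30 bases around the match are given.
Tnnt1, chr7:4515988-4516017, minus strand: tcagcacctagcTATAAAtccagggggtgc
Tnnt2, chr1:135836084-135836333, plus strand: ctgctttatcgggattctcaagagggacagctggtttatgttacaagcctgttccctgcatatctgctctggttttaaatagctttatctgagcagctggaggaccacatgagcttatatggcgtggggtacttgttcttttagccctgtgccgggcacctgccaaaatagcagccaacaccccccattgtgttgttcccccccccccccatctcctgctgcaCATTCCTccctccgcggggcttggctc
Actc1, chr2:114052903-114052932, minus strand: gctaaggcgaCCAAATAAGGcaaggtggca
Acta1, chr8:123894776-123895025, minus strand: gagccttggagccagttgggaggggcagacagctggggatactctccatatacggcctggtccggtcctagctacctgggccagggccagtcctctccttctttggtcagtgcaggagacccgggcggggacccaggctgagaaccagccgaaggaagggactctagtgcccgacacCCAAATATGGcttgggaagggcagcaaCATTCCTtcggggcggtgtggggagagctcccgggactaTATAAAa
The CArG box ends 38 bases before the RefSeq start in Actc1 and 64 bases before it in Acta1. Of 32851 mouse promoter windows of the same length, a CArG box was found in 1.47%, a MEF2 site in 0.508%, the TEAD element in 4.51% and the TATA sequence in 12.4%. Acta2 held the TEAD element, ending 141 bases before its start. A CArG box was counted only as CC, a run of A and T alone, and GG. The Acta2 window holds near matches with another base in that run, which were not counted, so it cannot be said to lack the element. Its RefSeq start lies 217 bases from the nearest GENCODE start, and its window overlaps an Acta2 exon. No match for any of the 4 was found in the windows of Tnni1, Tnni3 and Tnnc1, which says only that these letters are not in those windows. A match is a description of the letters and not a binding site.

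Cell classes were taken from clusters formed without the 8 genes. The cardiomyocyte-like class held 21491 cells, among them 5055 compact-type ventricular cells led by Kcne1 and Myh7, 1634 trabecular-type cells led by Gtsf1, Cited1 and Nppb, and 5288 atrial-type cells led by Myl7, Sln and Nppa. It also held 5800 cycling ventricular cells and 3714 shallow ventricular cells, the latter with a median of 665 UMIs. Both entered the tests of the cardiomyocyte-like class. Clusters were named from marker lists that hold the genes below, so their levels describe the labels and are no independent check. Myl2, the ventricular regulatory light chain, reached 11840 ± 1165 CPM in compact-type and 13510 ± 1664 in trabecular-type cells, against 391 ± 173 in atrial-type cells (SD, n = 15 libraries). Compact-type cells had more Hey2 (114 against 31.3 CPM) and Kcne1 (375 against 99.0) than trabecular-type cells. They had less Gja5 (28.8 against 163) and Cited1 (356 against 3079). Myh7 did not part these types (7248 and 7180), and Nppa was higher in trabecular-type (15670) than in atrial-type cells (13730). Mural-like cells, the smooth muscle cells and pericytes of vessel walls, numbered 2261 and had Rgs5 at 1422 ± 504 CPM (SD, n = 14) against 0 to 18.6 in compact-type cells (n = 15). Cnn1, a marker from the same list, did not part them from cardiomyocytes. It was at 497 ± 112 CPM in mural-like, 502 ± 65.9 in atrial-type and 385 ± 74.7 in compact-type cells. The skeletal muscle regulator Myog was at 0 in mural-like and macrophage-like cells and at most 5.05 CPM in any library of the 3 chamber types. Levels between classes are descriptions without a test, because the classes are clusters of the same cells.

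The largest difference between chambers among the 8 genes lay in Tnnt1, the slow skeletal troponin T. In WT libraries it ranged from 1365 to 1769 CPM in compact-type cells (median 1446), from 363 to 1590 in atrial-type cells (median 949) and from 142 to 310 in trabecular-type cells (median 252). The compact-type and trabecular-type ranges did not overlap in WT. Cycling and shallow ventricular cells averaged 1455 and 1475 CPM in WT, near the compact-type mean of 1485. Over all 15 libraries the compact-type level was above the trabecular-type level by 3.11 ± 0.539 log2 units (SD), and it was higher in 15 of 15 libraries. The atrial-type level was below the compact-type level in 15 of 15 libraries, with a mean difference of -0.738 log2 units and an SD of 0.503.

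Tnnt2, the cardiac troponin T, had the highest level of the 8 genes in each chamber type and the opposite ventricular order. WT libraries ranged from 17820 to 24370 CPM in compact-type cells (median 21060), from 21520 to 25880 in trabecular-type cells (median 23330) and from 15140 to 23010 in atrial-type cells (median 19270). The ranges overlapped, but within a library the trabecular-type level was the higher in 15 of 15, with a compact-type minus trabecular-type difference of -0.218 log2 units (SD 0.0710). Tnnt1 thus made up 6.80% ± 0.581 of troponin T UMIs in WT compact-type cells, 4.95% ± 1.90 in atrial-type cells and 0.970% ± 0.253 in trabecular-type cells (SD, n = 7).

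The troponin I genes showed a shift of isoform with the chamber. Tnni1, the fetal form, ranged in WT from 4973 to 6930 CPM in compact-type cells (median 6049), from 4625 to 6660 in trabecular-type cells (median 5427) and from 3858 to 5504 in atrial-type cells (median 4582). Tnni3, the adult form, ranged from 2643 to 3617 CPM in compact-type cells (median 3320), from 2676 to 3743 in trabecular-type cells (median 3158) and from 2944 to 3818 in atrial-type cells (median 3390). Ranges of both genes overlapped between chambers, whereas within each of the 15 libraries Tnni1 was lower in atrial-type than in compact-type cells.

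Tnni1 held 64.8% ± 2.91 of troponin I UMIs in WT compact-type cells, 62.9% ± 2.2 in trabecular-type cells and 57.3% ± 3.20 in atrial-type cells (SD, n = 7). Over 15 libraries the atrial-type minus compact-type difference was -7.80 ± 0.918 percentage points (SD), and the share was lower in 15 of 15. The trabecular-type share was below the compact-type share in 15 of 15 as well, by 2.60 ± 1.73 points. Fetal and adult forms were found in the same cells. After thinning each cell to 1000 UMIs, 92.0% of compact-type cells had UMIs of both genes (95% exact binomial interval 91.1 to 92.7, 4533 cells), as did 92.1% of atrial-type cells (91.2 to 93.0, 3562 cells). In macrophage-like cells, which should lack both, the share was 7.54% (5.76 to 9.66, 756 cells). Without thinning these shares were 97.1%, 90.5% and 13.0%, at median depths of 2969, 1790 and 1347 UMIs, and intervals cover counting error only.

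Tnnc1, the troponin C shared by the heart and slow skeletal muscle, was at 6543 ± 435 CPM in compact-type, 6052 ± 426 in atrial-type and 5274 ± 322 in trabecular-type cells (SD, n = 15). Its order held in every library: compact-type cells were above trabecular-type cells in 15 of 15, by 0.311 ± 0.0700 log2 units, and atrial-type cells lay between them in 15 of 15.

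Among the actins, Actc1 was the main form in the 3 chamber types, with 13370 CPM in compact-type, 12510 in trabecular-type and 12010 in atrial-type cells (means of 15 libraries). The SDs were 1772, 1900 and 1718, larger than the differences between the chambers, although within a library the atrial-type level was below the compact-type level in 14 of 15. Acta2, the smooth muscle actin, ranged in WT from 1199 to 2173 CPM in compact-type cells (median 1871), from 332 to 792 in trabecular-type cells (median 548) and from 811 to 1248 in atrial-type cells (median 985). Its compact-type level was above its trabecular-type level in 15 of 15 libraries, by 1.70 ± 0.576 log2 units (SD), as was the level of Tnnt1. Cycling and shallow ventricular cells averaged 1709 and 2025 CPM of Acta2 in WT, so a high level was not particular to compact-type cells. Acta1, the skeletal actin, was low, at 310 ± 108 CPM in compact-type, 192 ± 113 in trabecular-type and 324 ± 103 in atrial-type cells. Its difference between compact-type and trabecular-type cells, 0.826 ± 0.776 log2 units, was close to the spread between libraries and in the same direction in 12 of 15.

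Acta2 made up 11.4% ± 1.07 of the UMIs of the 3 actins in WT compact-type cells, 7.92% ± 1.43 in atrial-type cells and 4.62% ± 1.06 in trabecular-type cells (SD, n = 7). Acta1 held 1.91% ± 0.578, 2.11% ± 0.457 and 1.16% ± 0.365 in the same order. The coding sequences of the 3 actins are nearly identical, and the sources used here do not give how reads with several matches were assigned, so counts could be split between them. After thinning to 1000 UMIs, 57.6% of compact-type cells had an Acta2 UMI (56.1 to 59.0), against 27.0% of trabecular-type (24.6 to 29.6, 1252 cells) and 8.20% of macrophage-like cells (6.345 to 10.39). The unthinned shares were 71.2%, 39.6% and 14.0%. For Tnnt1 the thinned shares were 44.8%, 18.2% and 7.54%, and the unthinned ones 61.7%, 36.5% and 13.3%. Trabecular-type cells thus stood above the macrophage-like background for both genes, with a median depth of 2416 UMIs.

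**Figure D1:**
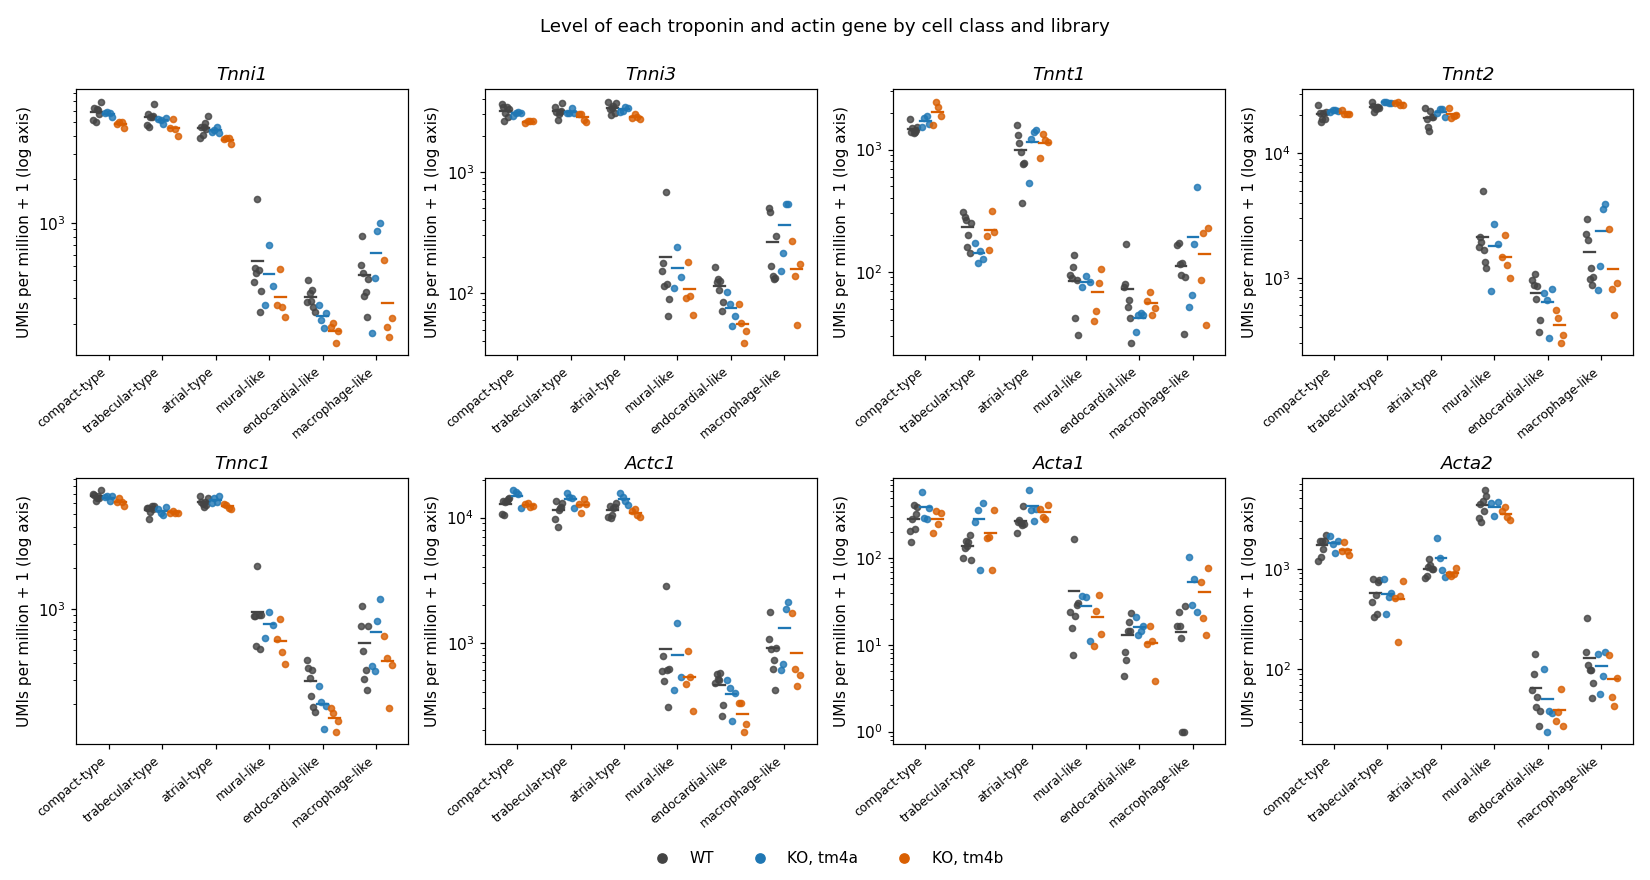
Level of each of the 8 genes in CPM plus 1 (log axis) in 6 cell classes, one point per library, with horizontal bars at the mean of the WT, KO tm4a and KO tm4b libraries. Tnnt1 and Acta2 are lower in trabecular-type than in compact-type cells in 15 of 15 libraries, and Acta2 is the gene whose mural-like level exceeds its level in the chamber types.

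The atrial-type class consisted of 2 clusters, and their isoforms differed. The 3875 cells led by Myl1 and Nppa were set against 1413 cells led by Vsnl1 and Shox2, the latter a transcription factor of the sinus node. Tnnt1 averaged 567 CPM in the Shox2 cluster and 1240 in the Nppa cluster and was lower in the former in 14 of 15 libraries. Acta1 averaged 185 and 374 CPM, also lower in 14 of 15, and Tnnt2 15820 and 21590, lower in 15 of 15. Acta2 went the other way, at 1465 CPM in the Shox2 cluster and 893 in the Nppa cluster, and was higher in the former in 14 of 15. Tnni1 was at 4326 and 4291 CPM, with a mean difference of 0.001 log2 units and an SD of 0.132, while Tnni3 was at 3551 and 3107 and higher in the Shox2 cluster in 14 of 15. The Tnni1 share was 54.8% in the Shox2 cluster and 58.0% in the Nppa cluster, lower in the former in 13 of 15.

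In mural-like cells Acta2 was far above the background. WT libraries ranged from 2913 to 6012 CPM (median 4401) and KO libraries from 3017 to 4608 (median 3713). Over the 14 libraries with at least 10 mural-like cells the mean was 4055 ± 907 CPM, against 107 ± 70.6 in macrophage-like cells of the same libraries, and it was higher in 14 of 14. KO replicate 4 had a single mural-like cell and was left out. Tnnc1 averaged 803 CPM in mural-like and 508 in macrophage-like cells and was higher in 11 of 14 libraries. Without WT replicate 4 the means were 707 and 524, and it was higher in 10 of 13. For the other 6 genes mural-like cells were above macrophage-like cells in 4 to 8 of 14 libraries, and their levels were not separated from that background: Tnnt2 averaged 1869 against 1539 CPM, Tnni1 456 against 401, and Actc1 768 against 918. Endocardial-like cells gave a lower background. Tnnt2 averaged 618 CPM there and Tnnc1 233, and both were higher in mural-like cells in 14 of 14 libraries. Tnni1 was higher in 12 of 14 and Tnni3 in 10 of 14, so the reading of these genes in mural-like cells depends on the background class. The Tnni1 share of troponin I in mural-like cells was 74.9% ± 3.68 (SD, n = 14), above the macrophage-like share in 12 of 14 libraries and above the compact-type share in 14 of 14.

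WT replicate 4, with 44 mural-like cells, stood apart there. The 7 members other than Acta2 summed to 12300 CPM, against 2554 to 4527 in the other 6 WT libraries. Acta2 made up 84.4% ± 8.91 of actin UMIs in mural-like cells (SD, n = 14) and 86.2% ± 6.06 without WT replicate 4 (n = 13). Acta2 was also above macrophage-like cells in 15 of 15 libraries in fibroblast-like cells (570 CPM) and in valve interstitial-like cells (323 CPM), against 109 CPM.

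Across the WT means of 15 cell classes and cardiomyocyte types, 7 of the 8 genes followed each other closely, with pairwise Pearson r of 0.902 to 0.997 on log2(CPM + 1), while Acta2 correlated with them at 0.663 to 0.753. The genes most like each member by the same measure were Sh3bgr (r = 0.991) for Tnni1, Cox7a1 (0.995) for Tnni3, Cycs (0.955) for Tnnt1 and Sh3bgr (0.997) for Tnnt2. They were Rbm24 (0.995) for Tnnc1, Trim55 (0.995) for Actc1, Smpx (0.965) for Acta1 and Cnn1 (0.939), the smooth muscle protein calponin, for Acta2. These values are descriptions of class means from the same 7 libraries, n = 15 classes, in which cardiomyocyte types and other cells form separate groups.

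**Figure D2:**
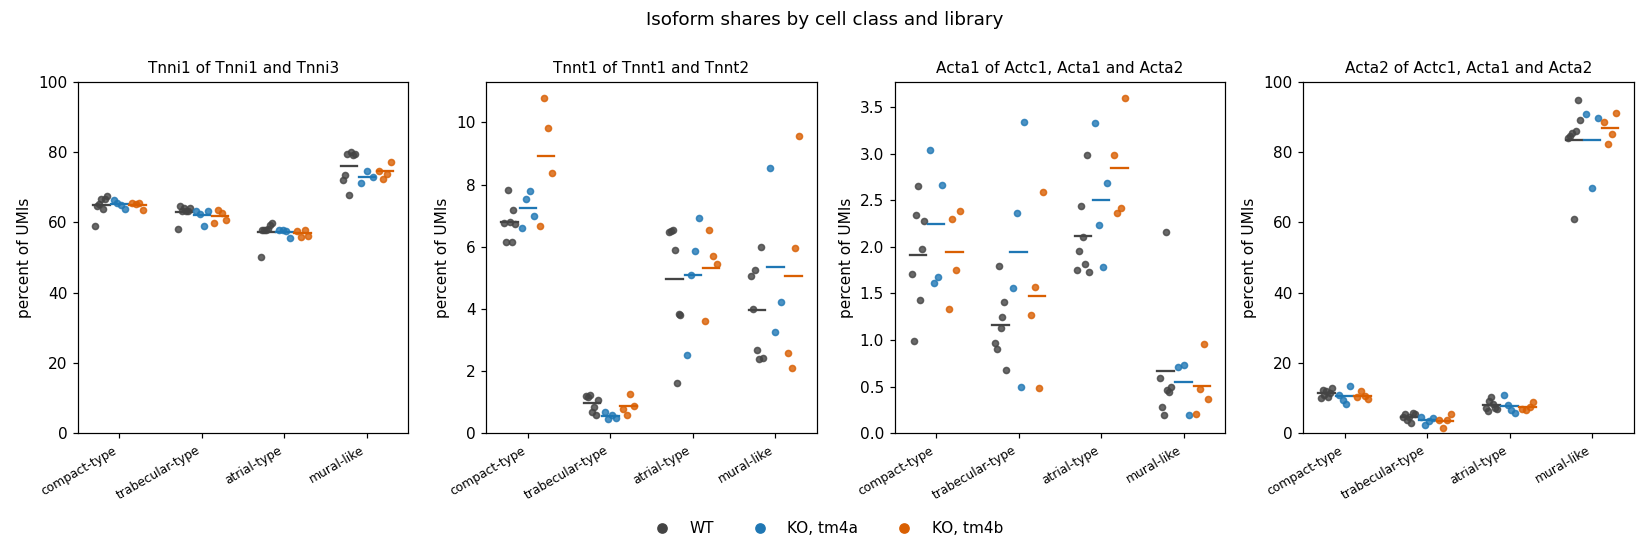
Share of Tnni1 in troponin I, of Tnnt1 in troponin T, and of Acta1 and Acta2 in the 3 actins, in percent of UMIs (vertical axes differ), per library in 4 cell classes, with bars at group means. The Tnni1 share is lower in atrial-type cells in 15 of 15 libraries, WT replicate 1 lies below the other libraries in the 3 chamber types, and the genotype groups overlap in every share.

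Between KO and WT hearts, none of the 8 genes passed the test in any class. Counts were compared per class with edgeR's quasi-likelihood test over all genes with Benjamini-Hochberg adjustment, calling a gene at an adjusted p under 0.05, and levels in these comparisons are CPM scaled by TMM factors. In cardiomyocyte-like cells 0 of 8 members were called, where 1.39% of 11276 tested genes were. The counts were 0 of 8 in compact-type cells (0.213% of all genes called), 0 of 8 in trabecular-type cells (0% of 4107 genes called by edgeR, with 346 at an unadjusted p under 0.05 and 11 called by DESeq2), and 0 of 8 in atrial-type cells (0.320%). In mural-like cells 0 of 7 tested members were called (0.0206% of all genes) and Acta1 did not pass the low-count filter. At these background shares, a count of 0 among 8 genes does not set the members apart from other genes.

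Tnnt1 came nearest in cardiomyocytes. In cardiomyocyte-like cells WT libraries ranged from 1021 to 1388 (median 1223) and KO libraries from 1242 to 1896 (median 1568) TMM-scaled CPM. The groups overlapped, and WT replicate 5, the WT library on the flow cell of the KO libraries, was the lowest of all at 1021. The log2 fold change was 0.34 (SE 0.109), with an adjusted p of 0.113. DESeq2 called it (log2 fold change 0.35, adjusted p = 0.0319), and so did edgeR without WT replicates 1 to 4 (0.44, adjusted p = 0.0492). With the flow cell as a covariate the value was 0.60 (SE 0.234) with an edgeR adjusted p of 0.799. That covariate parts the flow cell of the KO libraries from all others, so this value compares them with WT replicate 5 alone. With UMIs summed per litter the log2 fold change was 0.38 (SE 0.152) with an adjusted p of 0.451.

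The Tnnt1 share of troponin T in compact-type cells was 6.80% ± 0.581 in WT and 8.07% ± 1.52 in KO libraries, a difference of 1.27 points (two-sided exact permutation test, p = 0.0438, adjusted p = 0.376 over 20 shares and classes). In trabecular-type cells it was 0.970% ± 0.253 in WT and 0.709% ± 0.262 in KO libraries. The log2 ratio of compact-type to trabecular-type Tnnt1 was 2.74 in WT and 3.43 in KO libraries, and that difference of 0.69 had an exact permutation p of 0.00777 and an adjusted p of 0.186 over 24 such ratios. None of the 20 shares and none of the 24 ratios passed after adjustment.

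The other members were not called either, although some means moved by more than the SD of both groups. Tnni3 in compact-type cells was at 3296 ± 374 in WT and 2845 ± 346 in KO libraries (SD). Its log2 fold change was -0.21 (SE 0.109, edgeR adjusted p = 0.41). Tnnt2 in trabecular-type cells was at 26120 ± 1476 in WT and 27880 ± 908 in KO libraries. Its log2 fold change was 0.09 (SE 0.104, edgeR adjusted p = 0.87). Tnni1 in compact-type cells ranged from 4818 to 7726 in WT (median 6142) and from 4370 to 6106 in KO libraries (median 5199), with a log2 fold change of -0.21 (SE 0.120, edgeR adjusted p = 0.469). Its share of troponin I was 64.8% ± 2.91 in WT and 65.1% ± 0.982 in KO libraries (exact permutation p = 0.862). That comparison rests on WT replicate 1, at 58.9%. Without that library, singled out after its value was seen, the WT share was 65.8% ± 1.42 (n = 6) and the KO minus WT difference turned from 0.225 to -0.758 points (exact permutation p = 0.257). In atrial-type cells the difference went from -0.263 to -1.44 points (p = 0.00533), in trabecular-type cells from -1.09 to -1.89 (p = 0.0113) and in cardiomyocyte-like cells from -0.147 to -1.03 (p = 0.0333), by unadjusted exact permutation tests. Adjusted over the 20 shares and classes, none passed without that library either (smallest adjusted p = 0.107, exact permutation). Acta1 in trabecular-type cells ranged from 108 to 213 in WT (median 161) and from 78.0 to 490 in KO libraries (median 243), so that the KO libraries spread beyond the WT range on both sides. Its log2 fold change was 0.74 (SE 0.280) with an edgeR adjusted p of 0.442, and in atrial-type cells it was 0.46 (SE 0.176) with 0.252.

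Endocardial-like cells, which line the heart chambers, should lack sarcomere transcripts and were tested as a background class, in which 0 of 8 members were called, beside 0.322% of all genes. Tnni1 ranged there from 251 to 396 TMM-scaled CPM in WT (median 301) and from 147 to 286 in KO libraries (median 199), with a log2 fold change of -0.60 (SE 0.139) and an edgeR adjusted p of 0.0579. Tnni3 gave -0.78 (SE 0.194, adjusted p = 0.0701) and Tnnc1 -0.69 (SE 0.185, adjusted p = 0.0895). Members summed without Acta2 came to 1194 to 2514 CPM in WT and 855 to 1948 in KO endocardial-like cells. In macrophage-like cells, another class without sarcomeres, the same sum was 1928 to 7207 in WT and 1399 to 9255 in KO libraries. The part of free cardiomyocyte RNA in these values was not tested.

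In mural-like cells all 7 tested members had a negative KO over WT value, with a median of -0.52 against -0.03 for all tested genes, and 0 passed. The median rests on WT replicate 4. Without it Tnni1 went from -0.62 (SE 0.323) to -0.16 (SE 0.230), Tnni3 from -0.63 (SE 0.401) to -0.02 (SE 0.256) and Actc1 from -0.52 (SE 0.398) to 0.15 (SE 0.274). Of 9 tested sarcomere genes that are no members (myosin, titin and myosin-binding protein genes), 9 had negative values as well, and Ttn, the giant spring of the sarcomere, fell by 1.68 on the log2 scale (SE 0.292, adjusted p = 0.0314). It was the 1 gene called in this class, and 0 genes were called when WT replicate 1 or 2 or any KO library was left out, and 6 without WT replicate 3. Acta2, the member furthest above both background classes in mural-like cells, had -0.22 (SE 0.174, edgeR adjusted p = 0.694).

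**Figure D3:**
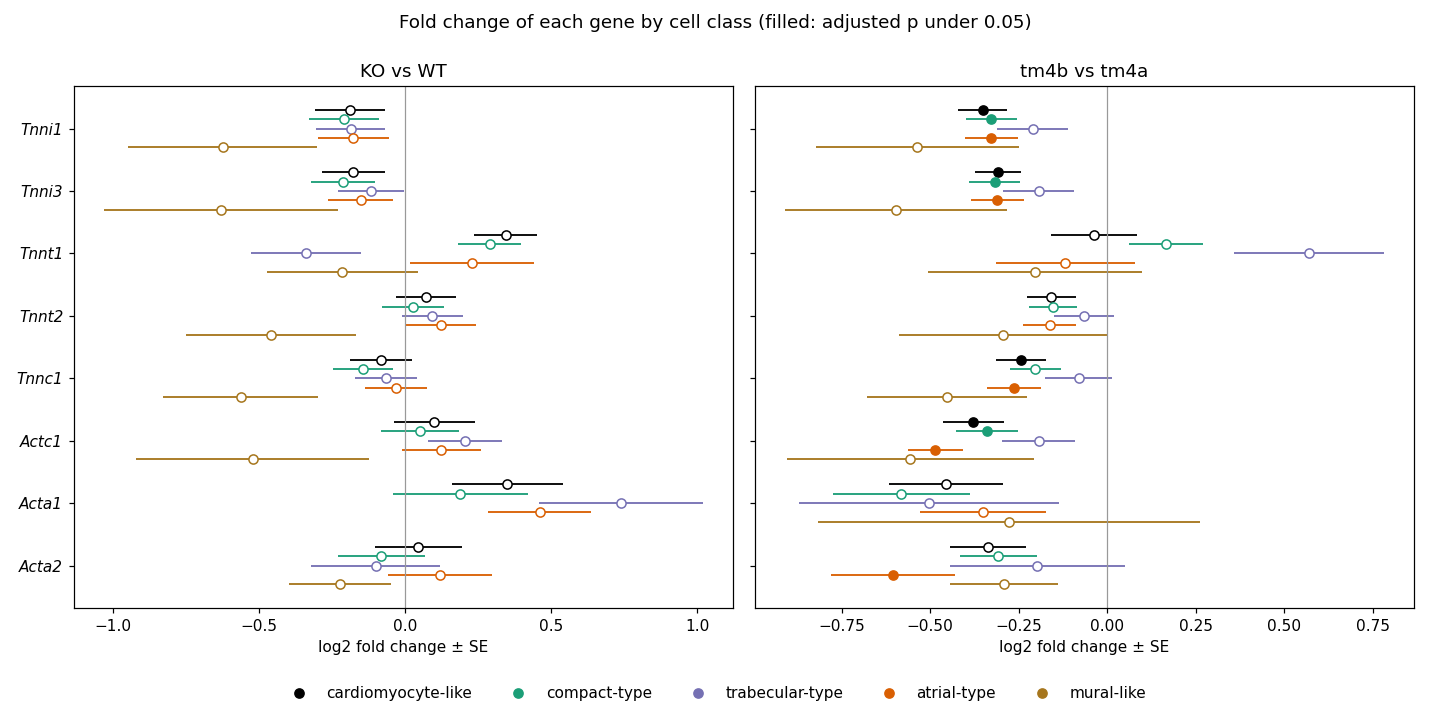
Log2 fold change of each gene with its SE, from edgeR, for KO over WT (left) and tm4b over tm4a (right), with 1 colour per cell class; filled points have an adjusted p under 0.05. No KO over WT point is filled, and the filled tm4b over tm4a points, of Tnni1, Tnni3, Tnnc1, Actc1 and Acta2, are all below 0.

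Between the alleles, troponin I, troponin C and cardiac actin were lower in tm4b than in tm4a cardiomyocytes. In cardiomyocyte-like cells 4 of 8 members were called, all lower, where 12.5% of 11235 tested genes were called, 708 higher and 701 lower. In compact-type cells it was 3 of 8, beside 6.62% of all genes, and in atrial-type cells 5 of 8, beside 5.01%. In trabecular-type cells 0 of 8 were called (0.573% of all genes) and in mural-like cells 0 of 8 (1.80%, 3 tm4a against 4 tm4b libraries). The medians over the members were -0.32 in cardiomyocyte-like, -0.31 in compact-type and -0.32 in atrial-type cells, against 0.01 for all tested genes in each. They were negative in the classes without a call as well. The median was -0.19 in trabecular-type cells (7 of 8 members negative) and -0.37 in mural-like cells (8 of 8 negative), also against 0.01. Since 4 libraries of 1 litter stood against 4 of other litters, these are differences between litters as much as between alleles.

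Tnni1 in cardiomyocyte-like cells was at 5619, 5273, 5329 and 5139 TMM-scaled CPM in tm4a replicates 1 to 4 and at 4285, 4335, 4231 and 3882 in tm4b replicates 5 to 8. The groups did not overlap. Its log2 fold change was -0.35 (SE 0.0690, edgeR adjusted p = 0.0059), and it was -0.33 in compact-type (adjusted p = 0.00955) and in atrial-type cells (adjusted p = 0.0144). In atrial-type cells the call was lost without KO replicate 7, which also lowered the count of genes called there from 418 to 91.

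Tnni3 was at 3099, 3041, 3138 and 3163 in the tm4a libraries and at 2531, 2601, 2470 and 2443 in the tm4b libraries, with no overlap and SDs of 52.8 and 70.1. The log2 fold change was -0.31 (SE 0.0650, edgeR adjusted p = 0.00835), and -0.31 in atrial-type cells (adjusted p = 0.0234), where the call was lost without KO replicate 5, 7 or 8. Both troponin I forms fell, and the Tnni1 share was 63.2% ± 1.06 in tm4a and 62.5% ± 0.777 in tm4b cardiomyocyte-like cells (n = 4 each, exact permutation p = 0.343). The smallest p that 4 against 4 libraries allow is 0.0286, and none of the 20 isoform shares passed between the alleles.

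Tnnc1 was at 6726, 6572, 6186 and 6842 in tm4a and at 5586, 5926, 5497 and 5244 in tm4b cardiomyocyte-like cells. The groups did not overlap, with a log2 fold change of -0.24 (SE 0.0700, edgeR adjusted p = 0.0339). The call was lost when KO replicate 2, 4, 5, 7 or 8 was left out (adjusted p up to 0.0966). In atrial-type cells Tnnc1 gave -0.26 (adjusted p = 0.0492), a call that held in 6 of 14 alternatives and was lost without KO replicate 2, 4, 5, 6, 7 or 8, and in compact-type cells -0.20 (adjusted p = 0.102).

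Among the cardiomyocyte classes Actc1 differed most in atrial-type cells, where the tm4a libraries held 16590, 15240, 14340 and 13690 and the tm4b libraries 11370, 11480, 10120 and 9792. The groups did not overlap, and the log2 fold change was -0.49 (SE 0.0790, edgeR adjusted p = 0.0024). In cardiomyocyte-like cells it was -0.38 (adjusted p = 0.0122), without overlap. In compact-type cells it was -0.34 (adjusted p = 0.0229), with KO replicate 4 at 12490 inside the tm4b range of 11790 to 12920, and the call was lost without KO replicate 1, 2, 3, 7 or 8. The log2 ratio of atrial-type to compact-type Actc1 was -0.08 in tm4a and -0.22 in tm4b libraries (exact permutation p = 0.0286, adjusted p = 0.686 over 24 ratios).

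Acta2 was called in atrial-type cells alone, at 2126, 1350, 1021 and 881 in tm4a and 886, 827, 849 and 986 in tm4b libraries. KO replicate 1, the tm4a library from a litter of its own, was the highest, and the groups overlapped. The log2 fold change of -0.60 (SE 0.176, edgeR adjusted p = 0.0499) became -0.29 (adjusted p = 0.174) without that library, and the call was also lost without KO replicate 2, 5, 6, 7 or 8.

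The troponin T genes and Acta1 were not called. Tnnt2 was at 22150 ± 482 in tm4a and 19850 ± 1149 in tm4b cardiomyocyte-like cells (SD, n = 4 each), with a log2 fold change of -0.16 (SE 0.0690, adjusted p = 0.146) and no overlap. Tnnt1 gave -0.04 (SE 0.121) there, 0.16 (SE 0.105) in compact-type and 0.57 (SE 0.211) in trabecular-type cells, the last with an adjusted p of 0.213. Acta1 gave -0.46 (SE 0.161, adjusted p = 0.0769) in cardiomyocyte-like cells.

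The size of these differences depends on how libraries are scaled. With library sizes alone in place of TMM factors, the median over all tested genes was 0.12 in cardiomyocyte-like, 0.11 in compact-type and 0.12 in atrial-type cells. Tnni1 in cardiomyocyte-like cells was then -0.25, which is -0.37 relative to that median, and remained called, as did Tnni3 and Actc1. Actc1 in atrial-type cells was then -0.38, or -0.50 relative to the median, and was the 1 member still called there. Depth overlapped between the alleles: median UMIs per cardiomyocyte-like cell were 1527 to 2230 in tm4a and 1648 to 2005 in tm4b libraries. Mitochondrial shares leaned lower in tm4b, with overlapping ranges. They were 2.99 to 3.75% in tm4a and 2.61 to 3.25% in tm4b cardiomyocyte-like cells. In atrial-type cells the ranges barely met, at 2.622 to 3.36% in tm4a and 2.407 to 2.639% in tm4b. The part of depth and mitochondrial share in the differences was not tested.

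**Figure D4:**
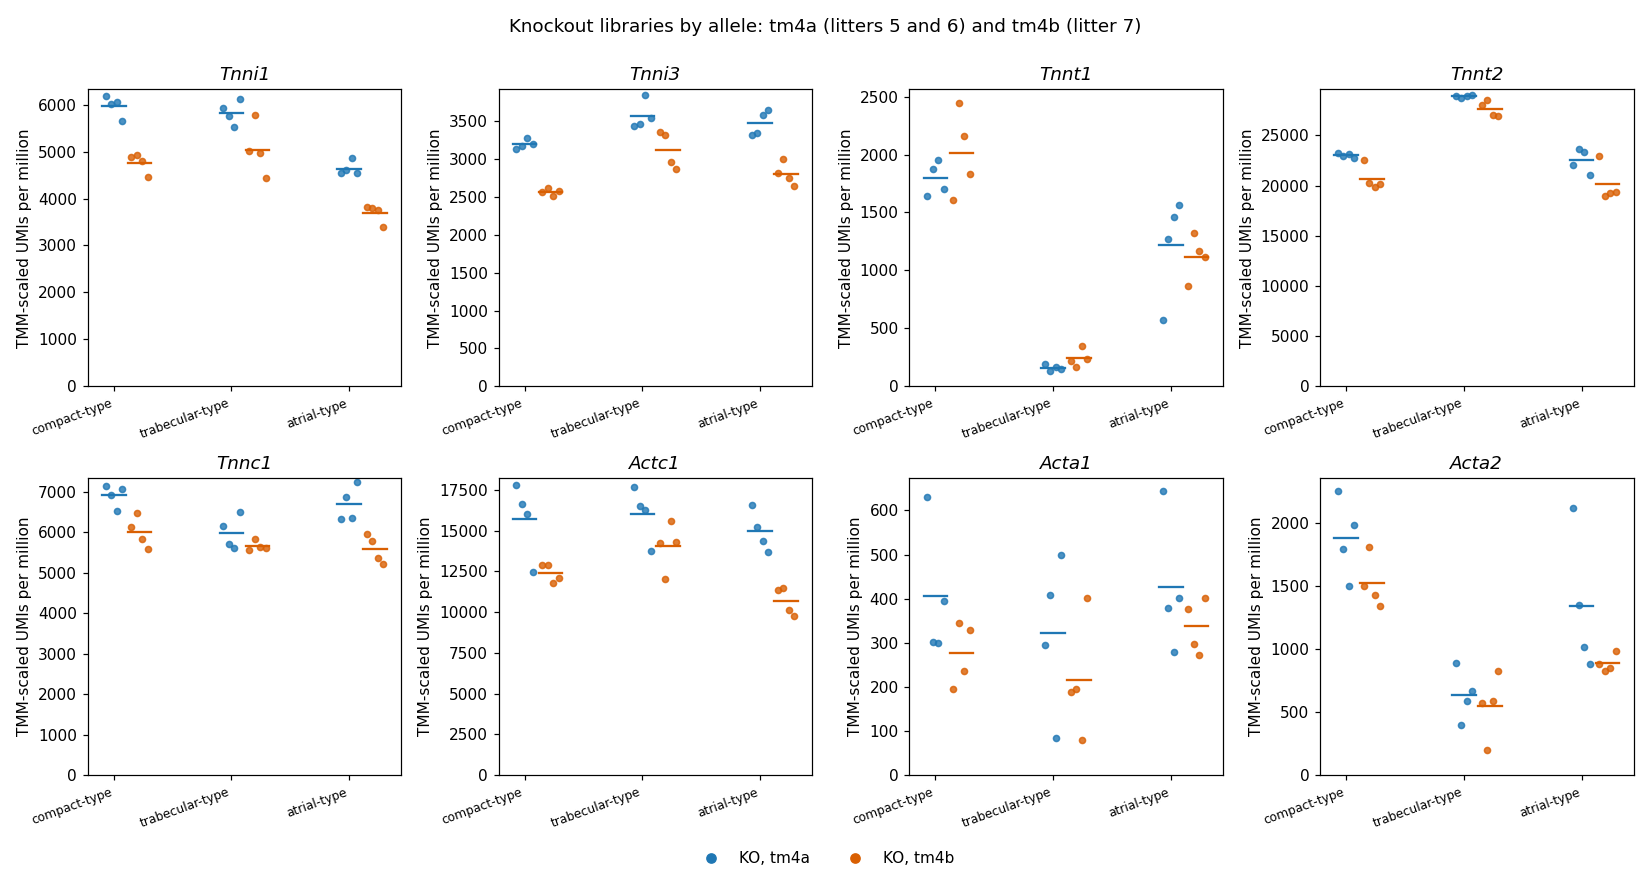
TMM-scaled CPM of each gene in compact-type, trabecular-type and atrial-type cells of the 8 KO libraries, one point per library with bars at the means of tm4a and tm4b. The tm4b libraries lie below every tm4a library for Tnni1 and Tnni3 in compact-type and atrial-type cells, whereas Acta1 and Tnnt1 overlap in all 3.

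Other thin filament and sarcomere genes were read from lists chosen with the members. Of 21 tested thin filament genes that are no members, 2 were called between the alleles in cardiomyocyte-like cells, a share below the 12.5% of all genes: Cfl1, an actin-severing cofilin, fell by 0.53 (SE 0.125, adjusted p = 0.0139), and Tmod1, which caps the pointed end of the thin filament, rose by 0.30 (SE 0.0750, adjusted p = 0.0193). In atrial-type cells 3 of 19 were called, beside 5.01% of all genes, and Lmod2, which lengthens thin filaments, rose by 0.73 (SE 0.146, adjusted p = 0.00822) beside Cfl1 (-0.60) and Tmod1 (0.35), both called. In compact-type cells 3 of 18 were called, beside 6.62% of all genes, with Tpm1, the tropomyosin to which troponin T binds, at -0.28 (SE 0.0780, adjusted p = 0.0336).

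Of the other sarcomere genes, the light chains Myl7 and Myl3 were lower in tm4b in compact-type (-0.41 and -0.26) and atrial-type cells (-0.42 and -0.57). They were 2 of 10 and 2 of 11 tested genes, beside 6.62% and 5.01% of all genes, with edgeR adjusted p-values between 0.00673 and 0.0371. In cardiomyocyte-like cells 1 of 11 was called, Myl3, a share below the 12.5% of all genes. In trabecular-type cells 0 of 9 were called, with a median of 0.144 and 7 positive values. In mural-like cells 0 of 9 were called, with a median of -0.405 and 1 positive value. Of the listed regulators of actin and troponin genes, Rest, a transcriptional repressor, was higher in tm4b in cardiomyocyte-like cells by 0.54 (SE 0.0970, adjusted p = 0.00363) and Thra, a thyroid hormone receptor, by 0.53 (SE 0.120, adjusted p = 0.0121). These were 2 of 22 tested, a share below the 12.5% of all genes called there. Of 12 tested smooth muscle genes 2 were called in cardiomyocyte-like cells, beside 12.5% of all genes, 1 in each direction. Synpo2 rose by 0.52 (SE 0.120, edgeR adjusted p = 0.0129), and Myl6 fell by 0.66 (SE 0.172, adjusted p = 0.0227). Myl6, a myosin light chain, was called lower in cardiomyocyte-like, compact-type, atrial-type and mural-like cells, with log2 values between -0.63 and -0.69. Of 19 tested Z-disc genes 3 were called in cardiomyocyte-like cells, beside the same 12.5% of all genes. Synpo2l and Nrap rose by 0.34 and 0.39, and the chaperone gene Cryab fell by 0.30 (edgeR adjusted p-values of 0.0187, 0.0301 and 0.0212).

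Between KO and WT in cardiomyocyte-like cells, Pdlim5, among the 19 tested genes of the Z-disc, the anchor of the thin filaments, rose by 0.39 (SE 0.0920, edgeR adjusted p = 0.034). None of the 20 tested thin filament genes, 11 smooth muscle genes, 23 regulators or 11 other sarcomere genes was called in that comparison by edgeR.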

How the data were processed

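Drop-seq libraries of 7 WT and 8 KO hearts were used as deposited by the authors: tables of raw UMI counts per gene and cell, with 5477109 to 11340443 UMIs per library. Per the submitters' processing notes the work named bcl2fastq 2.17, Seurat 2.1 and the build mm10, with no roles given, and the sources used here do not give the aligner or counter.

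Cells with at least 300 detected genes were kept. A limit of 30% mitochondrial UMIs removed none. Scrublet called 124 of 50899 cells (0.2436%), under 0.5% in 14 of 15 libraries, and so had not worked. Its calls were removed, and removing the top 5% of scores was added as an alternative after seeing the data. Counts of all genes were scaled to 10000 UMIs per cell. The 8 members were then left out, and 2000 variable genes, 30 components and 20 neighbours gave 23 Leiden clusters at resolution 1.0 (scanpy 1.11.5, leidenalg 0.10.2, seed 0). Clusters were named from marker lists. A cluster that mixed mural-like and fibroblast-like cells was split at resolution 0.3, which was decided after seeing the clusters. The members and lists were chosen with earlier results of these data known.

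UMIs were summed per library and class, with at least 10 cells. Whole tables were tested with edgeR 4.0.16 (quasi-likelihood, TMM, Benjamini-Hochberg over all genes, R 4.3.3), KO against WT over 7 and 8 libraries and tm4b against tm4a over 4 and 4. Isoform shares were compared with exact permutation tests (scipy 1.17.1). Named were all 8 members, the genes most like them in class means (at least 20 CPM), and listed genes past the threshold. In simulated compact-type data with 100 genes changed at each size, 96% were recovered at 1.0 log2 units and 28% at 0.5 for KO against WT (8286 genes), and 94% and 41% for tm4b against tm4a (8254 genes). Alternatives were DESeq2 1.42.0, library sizes only, no low-count filter, flow cell as covariate, sums per litter, a replicate block, other clusterings and leaving out libraries. The flow cell covariate, the sums per litter and the replicate block were run for KO against WT only. The covariate parted the flow cell of the KO libraries from all others. Its KO value therefore compares the KO libraries with WT replicate 5 alone. Same-numbered WT and KO libraries come from different litters, and their numbers do not pair them. One result for a listed gene is not reported here.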

Additional observations from a re-analysis of the deposited data

Results flagged for a closer look

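Of 168 groups of 4 to 8 libraries that were examined, 18 held 1 library whose gap to the others passed Dixon's critical value, and chance flags about 1 in 20. In WT replicate 1 the Tnni1 share of troponin I was 57.7% in cardiomyocyte-like cells (others 63.2 to 64.3), 58.93% in compact-type (63.9 to 67.6), 58.14% in trabecular-type (63.2 to 64.5) and 50.26% in atrial-type cells (57.8 to 59.9). The same library had Tnnt1 at 1769 CPM in compact-type cells, where the other WT libraries had 1365 to 1535.

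WT replicate 4 stood apart in mural-like cells, of which it held 44. Tnni1 was at 1451 CPM there (other WT libraries 240 to 488), Tnni3 at 685.7 (63.5 to 176), Tnnt2 at 4944 (1189 to 2102), Tnnc1 at 2057 (508 to 896), Actc1 at 2863 (303 to 782) and Acta1 at 167.4 (6.62 to 29.4). Acta1 made up 2.158% of the 3 actins (0.194 to 0.595) and Acta2 60.95% (84.0 to 94.8).

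Single values stood apart in other libraries. Tnnt2 was at 22300 CPM in compact-type cells of KO replicate 5 (other tm4b libraries 20420 to 20610), and the Tnni1 share was 63.41% in compact-type cells of KO replicate 8 (65.3 to 65.6). Tnni3 was at 3372 CPM in trabecular-type cells of KO replicate 3 (other tm4a libraries 3041 to 3089), and the Tnni1 share was 55.45% in atrial-type cells of KO replicate 4 (57.5 to 58.0). Acta1 was at 404.6 CPM in atrial-type cells of WT replicate 6 (other WT libraries 194 to 274).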

How the results depend on the processing

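For members that passed the test, 171 values under alternatives gave 0 changes of sign and 137 adjusted p-values under 0.05. Tnni1, Tnni3 and Actc1 in cardiomyocyte-like cells, Tnni1 and Tnni3 in compact-type cells and Actc1 in atrial-type cells stayed past the threshold in all alternatives run between the alleles. None of those alternatives dealt with litter, because the flow cell covariate, the sums per litter and the replicate block were run for KO against WT alone. For members that did not pass, 55 of 1551 values changed sign and 32 adjusted p-values were under 0.05. Between KO and WT, 1 member (Tnnt1) passed in cardiomyocyte-like cells with DESeq2 and 1 without WT replicates 1 to 4, and 1 (Acta1) in trabecular-type cells with no low-count filter. In endocardial-like cells 3 passed with DESeq2, 1 with library sizes only, 2 with no low-count filter, 3 with the top 5% of doublet scores removed, and 0 to 3 with 1 library left out (3 without KO replicate 1, and 1 without WT replicate 1 or 3). Between the alleles, 5 passed in compact-type cells with no low-count filter against 3, and in atrial-type cells 1 with library sizes only and 1 to 5 with 1 library left out, against 5. The cause was not tested.

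Counts over all genes between KO and WT moved more. Those with the flow cell as covariate compare the KO libraries with WT replicate 5 alone. In cardiomyocyte-like cells 157 genes passed, 387 with DESeq2, 2 with the flow cell as covariate, 2 with sums per litter, 892 without WT replicates 1 to 4, and 67 to 458 with 1 library left out. In compact-type cells it was 18, against 111 with DESeq2, 57 with no filter, 0 with the flow cell, 8 per litter, 386 without those 4 and 3 to 171 with 1 left out. In atrial-type cells it was 26, against 106, 47, 2, 7, 297 and 14 to 143 in the same order, in trabecular-type cells 0, with 53 under no filter and 0 to 22 with 1 left out, in mural-like cells 1, with 8 under DESeq2 and 15 under no filter, and in endocardial-like cells 27, with 119 under DESeq2 and 5 to 132 with 1 left out. Between the alleles 1 library left out gave 660 to 1603 genes in cardiomyocyte-like (main value 1409), 228 to 658 in compact-type (560), 91 to 382 in atrial-type (418), 1 to 58 in trabecular-type (22) and 1 to 113 in mural-like cells (98).

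With a replicate block the counts between KO and WT were 3 in cardiomyocyte-like, 0 in compact-type and 4 in atrial-type cells, and 0 members passed in each class. Same-numbered libraries correlated at -0.323 to 0.096, and 0 of 7 correlated best with their own number. Few cells limit the mural-like values, with 44 in WT replicate 4 and 1 in KO replicate 4.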
